A study of Mus musculus with 12 samples.

Results

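The clustered protocadherins of the mouse brain were described gene by gene and cluster by cluster in mice with a heterozygous or homozygous deletion in Slc6a20a. Members were the protein-coding genes whose symbol is Pcdha or Pcdhac, Pcdhb, or Pcdhga, Pcdhgb or Pcdhgc followed by a number, which gave 56 of the 19775 genes measured. They fall into the alpha cluster with 14 genes, the beta cluster with 21 and the gamma cluster with 21. Pcdhb1 was not analysed here, and Pcdhgb8, which the annotation calls a polymorphic pseudogene, falls outside the definition.

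RNA of the whole brain was sequenced from 12 male C57BL/6N mice at about postnatal day 120, 4 each that were wild type (WT), Slc6a20a+/- (HT) or Slc6a20a-/- (HM). The mutant allele lacks exon 3 of Slc6a20a, which encodes a transporter of proline and glycine, and the mice came from crosses between heterozygous animals. The question put to the data was how the brain transcriptome of each mutant genotype differs from that of WT mice. Values are normalized counts, that is, estimated reads per gene after scaling for library size, and are followed by the SD over the 4 mice of a genotype unless stated otherwise.

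Clustered protocadherins are cadherin-like proteins of the cell surface that bind identical isoforms on the facing membrane, and the combination of isoforms in a neuron serves as an identity label for self-avoidance of dendrites, axonal tiling and synapse formation. Each gene has its own promoter, and most promoters are chosen by chance in each neuron through loops made by CTCF and cohesin, whereas the isoforms named C-type (Pcdhac1, Pcdhac2, Pcdhgc3, Pcdhgc4 and Pcdhgc5) are expressed more regularly across neurons. In the alpha and gamma clusters every gene contributes 1 variable exon, which encodes the extracellular part, and all genes of the cluster splice to the same constant exons for the intracellular part.

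The deletion was visible in its target gene. Slc6a20a had 704, 584, 678 and 750.5 normalized counts in the 4 WT mice, 332, 366, 372 and 310.3 in HT mice and 69.0, 55.6, 76.5 and 57.1 in HM mice, and the genotypes did not overlap. Against WT, its log2 fold change on the log2(normalized count + 1) scale was -0.97 for HT (limma with Benjamini-Hochberg (BH) adjustment, adjusted p = 9.4e-04, but 0.14 where the variance prior had no trend) and -3.38 for HM (limma, BH-adjusted p = 1.8e-08). Of 10 genes of neurons and glia, none was at 0 in any mouse. Normalized counts of all genes summed to between 33284951 and 33748623 per mouse, and since the values were already scaled for library size, the depth of each library is unknown.

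On chromosome 18 of GRCm38, all members lie on the plus strand, in the order alpha, beta and gamma. The alpha cluster runs from 36930184 to 37187661, the beta genes analysed here run from 37294812 to 37524479 and the gamma cluster runs from 37661793 to 37841873 (GENCODE M21). The 14 alpha genes share 3 constant exons of 59, 89 and 2712 bases at 37156155 to 37156213, 37159265 to 37159353 and 37184946 to 37187657. These 2860 shared bases are 48.6% to 54.9% of an alpha transcript. The gamma genes share exons of 59 bases (37825021 to 37825079), 89 bases (37833265 to 37833353) and 1971 bases (37839903 to 37841873), and in 4 of the 21 genes the last exon is annotated with 1968 bases. Beta genes consist of a single exon each and carry no constant exon, and among them Pcdhb21 and Pcdhb22 overlap by 455 bases. M21 gives the symbol Pcdha11 to 2 genes, and the more upstream one (ENSMUSG00000007440), which RefSeq names Pcdha10, is called Pcdha10 here.

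The shared exons bear on what a value per gene means, because a read from a constant exon has to be divided between isoforms by estimation. To describe this, the longest protein-coding transcript of each member was searched in windows of 31 bases, on both strands, for windows found in no other annotated gene. The unique share was 79.8% to 94.8% in 20 of the 21 beta genes, and 33.1% in Pcdhb12, of whose windows 63.1% also lie in the antisense gene Gm37446. In the alpha cluster the median unique share was 35.1%, with 51.6% in Pcdhac2. It was 0.49% in Pcdha4, whose first exon is also part of Gm42416, and 1.52% in Pcdha11, of whose windows 45.3% lie in the antisense gene Gm10545. In the gamma cluster the median was 44.5%, the highest share was 58.1% in Pcdhgc4, and the lowest was 0.62% in Pcdhga10, which shares 54.9% of its windows with the antisense gene Gm26672. Pcdhgc3 had a unique share of 23.2% and shares 31.8% of its windows with the antisense gene BC037039. In Pcdhga4, 1038 of the 2608 bases of the first exon (39.8%) are also in a non-coding transcript of the neighbouring gene Pcdhgb1, and its unique share was 32.2%. The sources used here do not state that strand was used in counting, so a member and its antisense partner cannot be told apart. Values of single alpha and gamma genes, of Pcdhb12, Pcdhb21 and Pcdhb22 are therefore uncertain, while a sum over a whole cluster does not depend on how reads were divided between its members. It can still depend on the division with genes outside the definition. Pcdhgb8 carries the gamma constant exons and holds 41.3% to 49.1% of the windows of each of the 21 gamma genes, and the non-coding gene Gm38182 holds 11.9% to 12.9%.

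**Figure D1:**
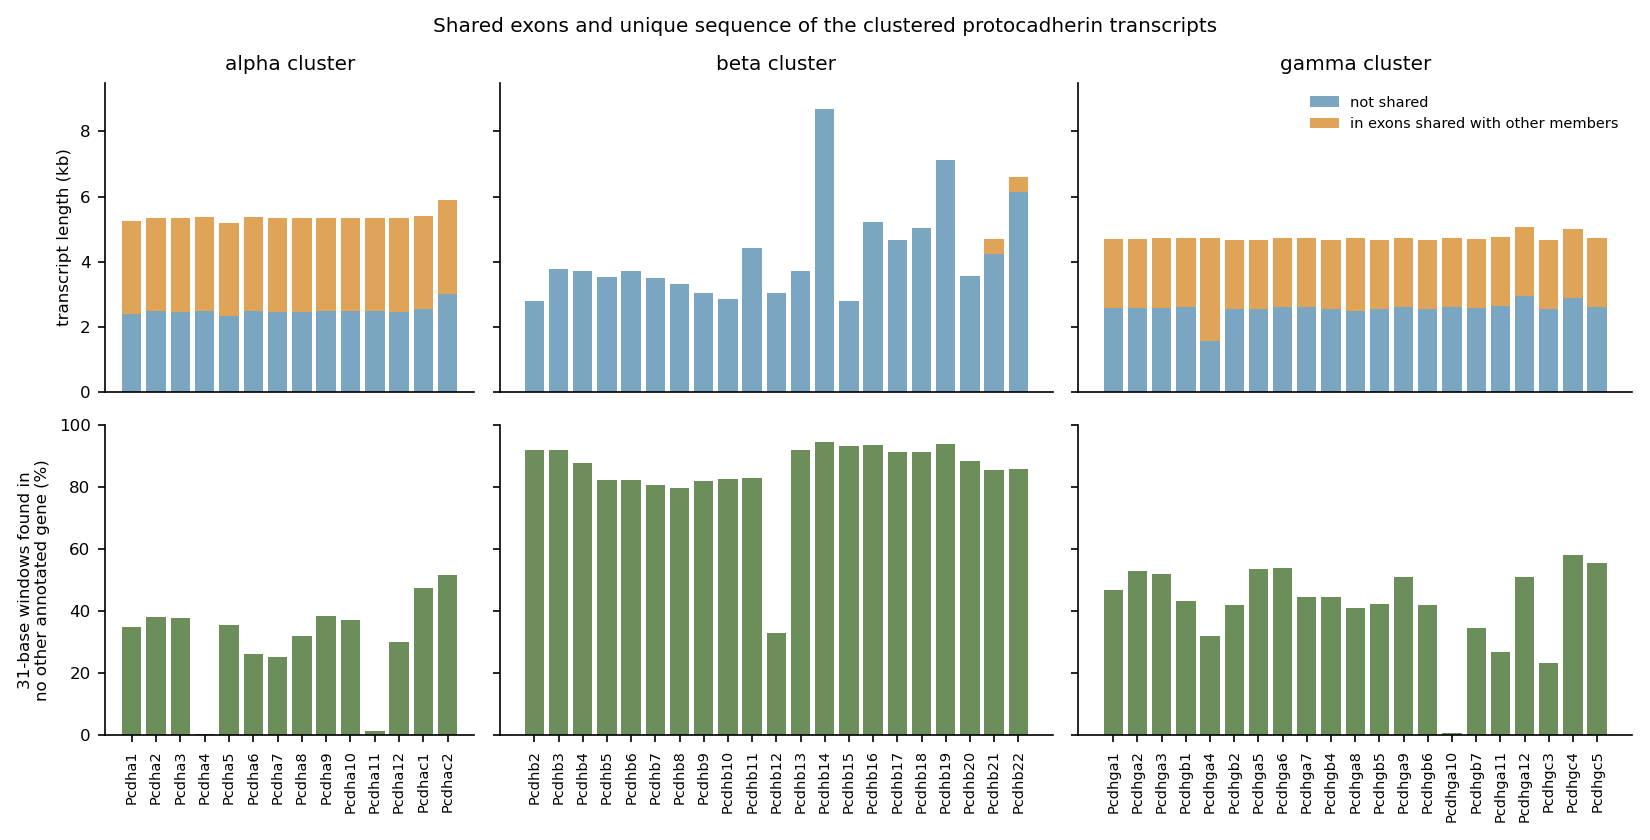
Upper row, length in kb of the longest protein-coding transcript of each member, in chromosomal order, divided into bases whose genomic position lies in an exon of other members too (orange) and the remaining bases (blue). Lower row, share in percent of its 31-base windows that occur in no other annotated gene. Alpha and gamma transcripts share about as many bases as they hold alone, whereas only Pcdhb21 and Pcdhb22 of the beta genes overlap in position.

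In WT mice, levels per kb of transcript differed far more between members than between genotypes. The highest alpha gene was Pcdhac2, an isoform known from axonal tiling of serotonergic neurons, with 380.7 ± 18.3 normalized counts per kb. The lowest was Pcdha8 with 8.80 ± 4.5 per kb, so that the alpha members spanned a 43.2-fold range. The 12 alpha genes that are not C-type lay between 8.80 and 104.3 per kb, with Pcdha12 on top, and Pcdhac1 had 39.1 ± 2.5 per kb, within the range of those 12. Beta genes spanned only 6.21-fold, from 17.8 per kb in Pcdhb4 to 110.6 in Pcdhb9. Just below Pcdhb9 lay Pcdhb20 with 110.0 ± 6.6 and Pcdhb17 with 107 ± 8.6 per kb, and these 3 differed by less than the spread between mice. The gamma cluster was led by its 3 C-type genes. Pcdhgc5, which binds a GABA-A receptor subunit, had 1018 ± 70.4 per kb, Pcdhgc4, an isoform required for the survival of cortical interneurons, had 693 ± 228, and Pcdhgc3, which acts in dendrite branching, had 657 ± 41.8. The levels of Pcdhgc4 and Pcdhgc3 differed by less than the spread between WT mice. The other 18 gamma genes lay between 57.1 per kb in Pcdhgb4 and 218 per kb in Pcdhga11.

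**Figure D2:**
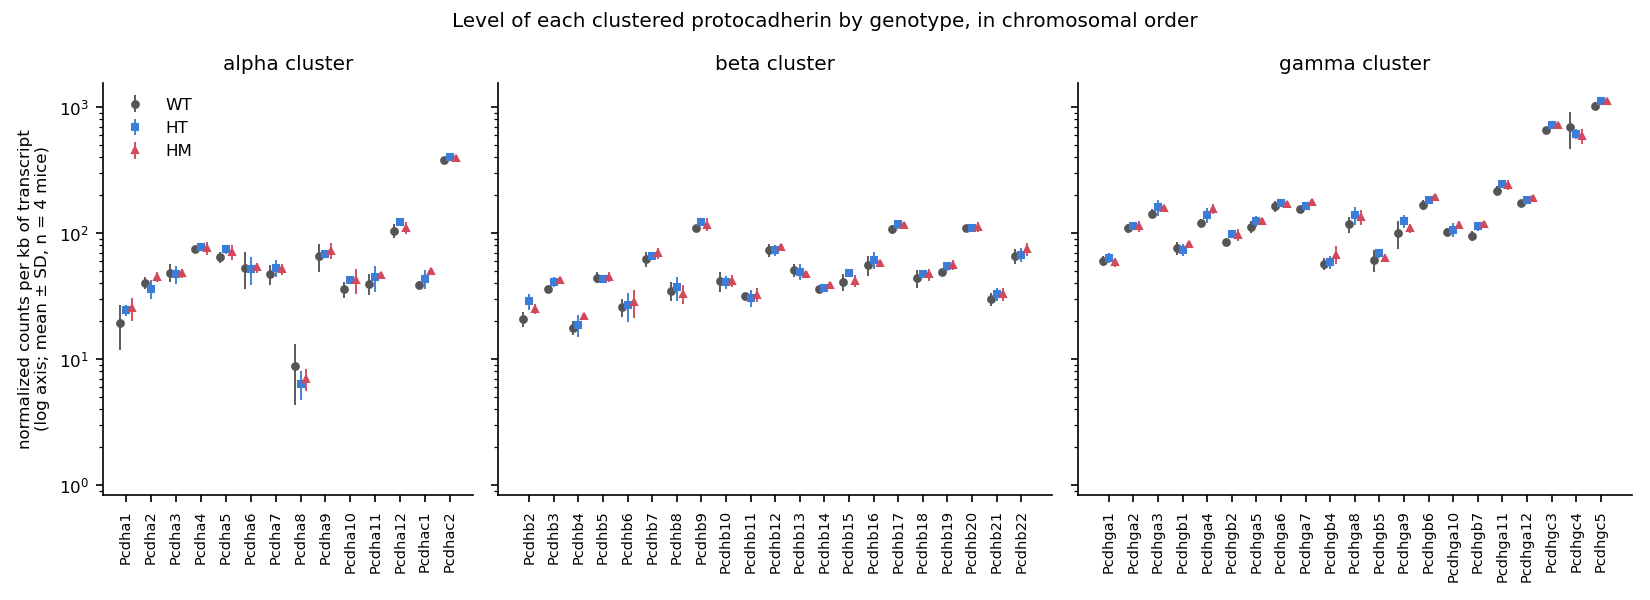
Normalized counts per kb of transcript (log axis) of each member in WT, HT and HM mice, in chromosomal order, as mean ± SD of 4 mice. Pcdhac2 and the gamma C-type genes Pcdhgc3, Pcdhgc4 and Pcdhgc5 stand above the rest of their clusters in all 3 genotypes, and Pcdha8 is lowest.

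The C-type genes made up a large part of each sum. Pcdhac1 and Pcdhac2 together held 43.3 ± 1.1% of the alpha sum in WT mice, 43.0 ± 0.57% in HT mice and 42.9 ± 1.1% in HM, with a range of 41.6% to 44.7% over the 12 mice. The 3 gamma C-type genes held 53.1 ± 3.3% of the gamma sum in WT mice, 51.4 ± 1.5% in HT mice and 50.8 ± 1.1% in HM. Within genotypes, the SD of a member between mice on the log2 scale had a median of 0.21 in the alpha, 0.16 in the beta and 0.12 in the gamma cluster, beside 0.12 over all 18006 genes with a mean of at least 10. Pcdha8 was the most variable member, with 73.0, 27.4, 61.8 and 25.7 normalized counts in the WT mice.

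In the comparison of genotypes, all 56 members passed the filter of a mean of at least 10 normalized counts, and no member passed an adjusted p of 0.05 (limma, BH) in any comparison. The share of all tested genes that did so was 0.00555% between HT and WT, 0.0111% between HM and WT, and 0.00556% between HM and HT. The study's own DESeq2 test, in contrast, called Pcdhga4 upregulated in homozygotes at an adjusted p under 0.05. Most but not all members showed small differences in the same direction. The log2 fold change was above 0 in 45 of 56 members for HT against WT and in 50 of 56 for HM against WT, beside 50% and 49.8% of all genes tested. Both comparisons use the same 4 WT mice, so the second count is no independent repeat of the first, and members that share exons are not independent of each other either. Between the mutant genotypes, 30 of 56 members were higher in HM than in HT mice, beside 49.5% of all genes.

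By cluster, the log2 fold change was above 0 in 10 of 14 alpha, 16 of 21 beta and 19 of 21 gamma genes for HT and in 12, 19 and 19 for HM mice, each against WT. The gamma genes below 0 were Pcdhgc4 in both mutant genotypes, Pcdhgb1 in HT (-0.06) and Pcdhga1 in HM mice (-0.05). Pcdha3 and Pcdha8 of the alpha and Pcdhb13 of the beta cluster were below 0 in both. The alpha cluster had a median log2 fold change of 0.11 in HT and 0.13 in HM mice against WT, the beta cluster of 0.08 and 0.11, and the gamma cluster of 0.13 and 0.15. Over all genes tested the medians were 0.0001 and -0.0003. For HM against HT the cluster medians were 0.04, 0.03 and -0.0012. With 1 mouse left out at a time, each lay on both sides of 0 (alpha -0.02 to 0.07, beta -0.03 to 0.07, gamma -0.0077 to 0.02). Where every library was first corrected for the length and GC content of transcripts, which was chosen after seeing the data, the alpha, beta and gamma medians were 0.09, 0.08 and 0.11 for HT and 0.11, 0.08 and 0.13 for HM mice. Single mice moved these medians too. For HT against WT, the alpha median was 0.04 without HT replicate 1, the beta median 0.03 without WT replicate 1 and 0.13 without WT replicate 2, and the gamma median 0.08 without WT replicate 1. For HM against WT, the alpha median was 0.22 without WT replicate 2 and 0.06 without WT replicate 4. The column names also carry an animal number, and mice whose numbers start alike may share a litter or cohort, which the sources used here do not state. With the start of the animal number as a block, the medians were 0.09, 0.02 and 0.08 for HT and 0.03, 0.11 and 0.19 for HM mice. WT replicate 1 shares its start with no HT mouse and therefore carries no weight in these HT medians. The HM medians rest only on HM replicates 3 and 4 and WT replicates 1 and 2, because the other starts occur in 1 genotype only.

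At an unadjusted p under 0.05 (limma), 10 of 56 members (17.9%) differed between HT and WT mice, all of them higher in HT, beside 3.16% of all genes tested that were higher and 3.26% that were lower. They were 2 alpha genes, 1 beta gene and 7 gamma genes. For HM against WT there were 13 of 56 (23.2%), again all higher in the mutant, beside 3.93% of all genes that were higher and 3.05% that were lower, namely 1 alpha, 2 beta and 10 gamma genes. For HM against HT only Pcdha2 differed, beside 2.11% of all genes tested that were higher and 1.62% that were lower. These counts lean on single mice. Without WT replicate 1 they were 4 for HT against WT and 8 for HM against WT, and without HT replicate 2 the first was 6. The values of all 4 mutant mice lay above those of all 4 WT mice in 5 members for HT, beside 1.82% of all genes tested, and in 9 members for HM mice, beside 2.41%. The reverse, all mutant values below all WT values, held for 0 members, beside 1.91% of all genes for HT and 1.81% for HM mice. In no member were the HM values all above or all below the HT values, beside 1.24% and 1.14% of all genes.

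**Figure D3:**
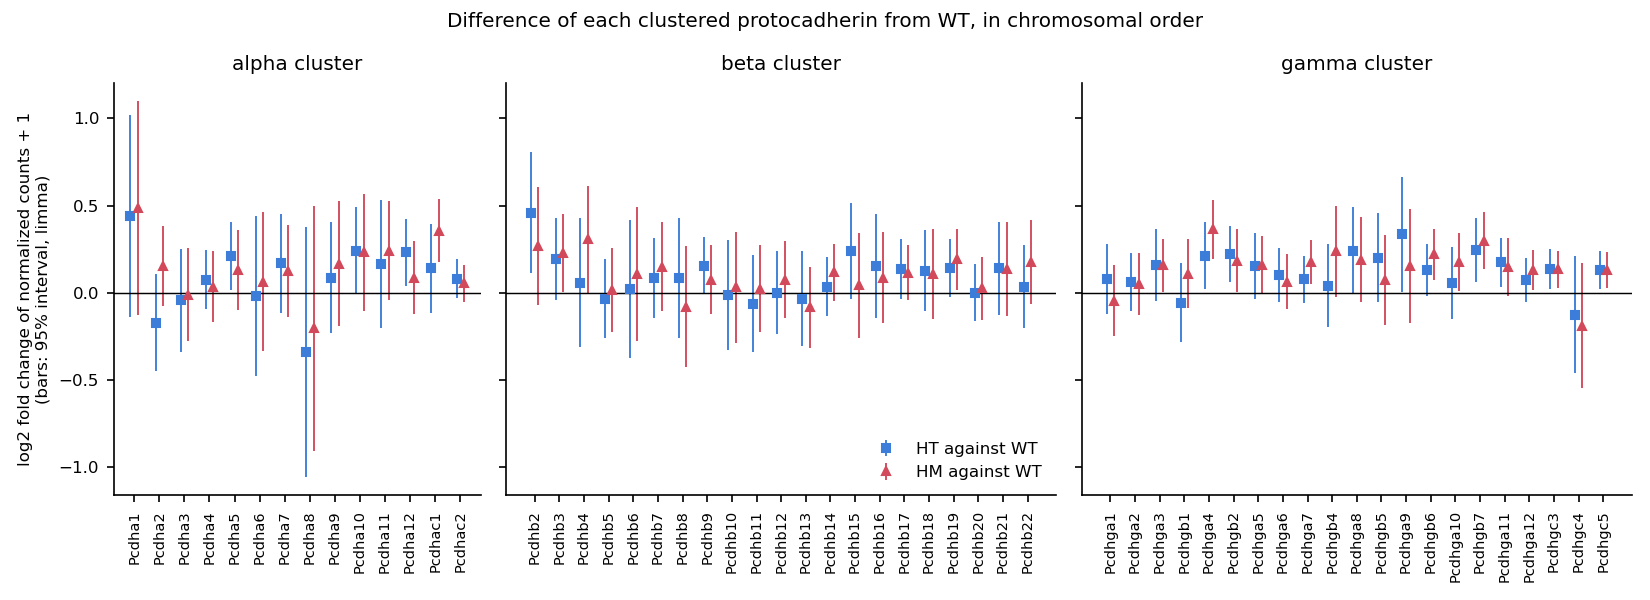
Log2 fold change of normalized counts + 1 for each member in HT (squares) and HM mice (triangles) against the same 4 WT mice, with 95% intervals from limma, in chromosomal order. Most points lie above 0 by less than 0.3, and few intervals exclude 0, more of them in the gamma cluster than elsewhere.

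Sums over a cluster do not rest on the division of reads between its members. Alpha genes together had 5634, 5911, 5767 and 5347 normalized counts in the WT mice, 6512, 5823, 5819 and 6102 in HT mice, and 6079, 6048, 5916 and 6189.9 in HM mice. The HM values lay above all WT values and the HT values overlapped with WT. The mean was 7.04% higher in HT and 6.95% higher in HM than in WT mice. As log2 ratios both were 0.10, and with 1 mouse left out they ranged from 0.06 to 0.12 for HT and from 0.07 to 0.12 for HM.

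Beta genes together had 4393, 5002, 4586 and 4492 normalized counts in WT mice, 5183, 4875, 4689 and 4839.8 in HT mice and 4664, 4966, 5179 and 4983 in HM mice. WT replicate 2 was as high as the mutant mice, and all genotypes overlapped. Against the mean of the other WT mice, the alpha genes of WT replicate 2 lay higher by a median of 0.19 on the log2 scale and its beta genes by 0.18. The mean of the beta sums was 6.03% higher in HT and 7.13% higher in HM mice than in WT. As log2 ratios these were 0.08 and 0.10, and with 1 mouse left out they ranged from 0.056 to 0.125 and from 0.076 to 0.14.

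Gamma genes together had 21670.0, 20679, 21729 and 21699 normalized counts in WT mice, 23272, 22945, 22725 and 22378 in HT mice and 22658, 23096, 22908 and 22772 in HM mice. Every HT and every HM mouse lay above every WT mouse, while HT and HM overlapped. The mean was 6.46% higher in HT and 6.6% higher in HM than in WT mice, with a coefficient of variation of 2.38% for WT, 1.65% for HT and 0.83% for HM mice. Without Pcdhgc4, which was left out after seeing the data, the sums were higher by 9.92% in HT and by 10.7% in HM mice, and the mutant values again lay above all WT values. Among the types of gamma gene, the 6 Pcdhgb genes together had 2547 ± 116 normalized counts in WT mice, 2803 ± 122 in HT mice and 2920.05 ± 47.3 in HM mice, with no overlap between either mutant genotype and WT. The 12 Pcdhga genes had 7509 ± 532 in WT mice, 8289 ± 343 in HT mice and 8324 ± 161 in HM, and of these only the HM values lay above all WT values. Other genes of the table that hold at least 5% of the windows of a member, namely 2 for alpha, 1 for beta and 5 for gamma, Pcdhgb8 among them, made up 0.876%, 0.618% and 1.29% of the WT sums when added after seeing the data. With them, the alpha, beta and gamma sums were higher by 6.9%, 5.88% and 6.55% in HT and by 6.84%, 7.16% and 6.61% in HM mice than in WT, and the gamma sums of all mutant mice again lay above those of all WT mice. In bulk tissue, more cells of a type and more RNA per cell cannot be told apart.

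**Figure D4:**
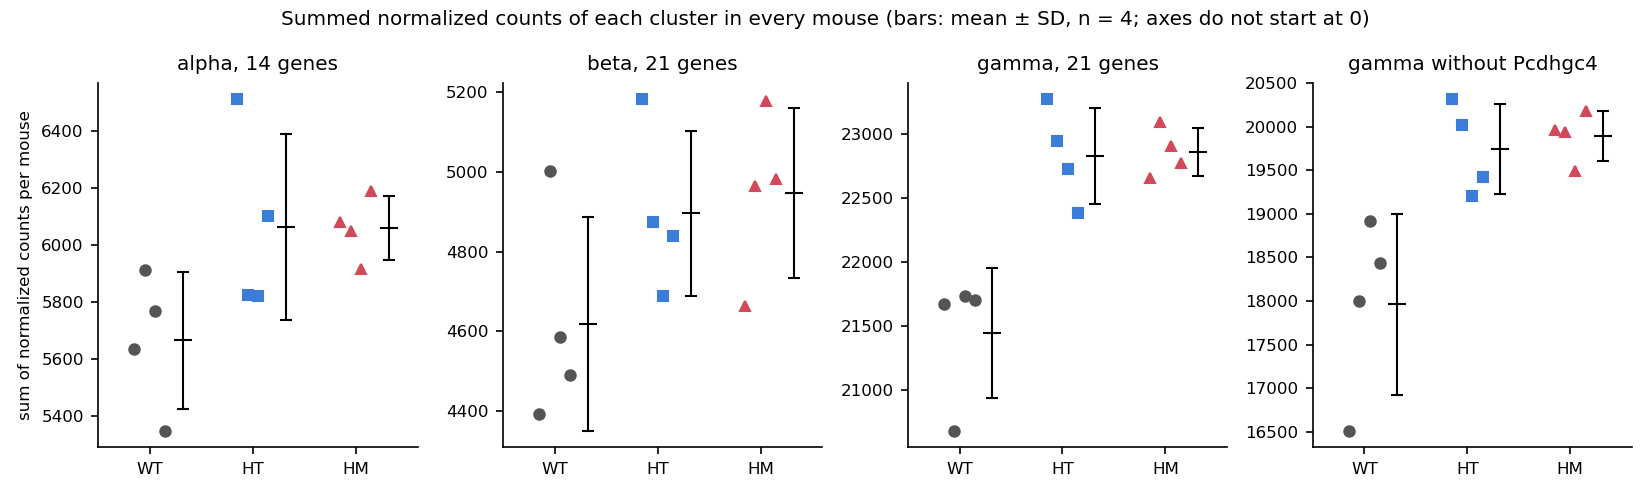
Sum of normalized counts over the genes of each cluster in every mouse, with mean ± SD of the 4 mice beside the points (vertical axes do not start at 0). In the gamma cluster, with and without Pcdhgc4, all HT and HM mice lie above all WT mice, and the beta sums overlap between all genotypes.

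Of the alpha genes, Pcdhac1 differed most clearly. It had 203, 231, 203 and 209.5 normalized counts in the WT mice, 292, 199, 238 and 213 in HT mice, and 272, 267, 277 and 268 in HM mice. The HM values lay close together and above all WT values, whereas HT replicate 1 alone among the HT mice exceeded the HM values. The log2 fold change of HM against WT was 0.36 (95% interval 0.18 to 0.54, limma, unadjusted p = 9.0e-04, BH-adjusted p = 0.55). The two-sided exact permutation p was 0.0286, the smallest that 4 mice against 4 allow. Against HT mice the difference of HM was 0.22 with a 95% interval of -0.02 to 0.46. Pcdhac2, the most abundant alpha isoform, had 2191, 2275, 2375 and 2126 normalized counts in WT mice, 2522, 2258, 2294 and 2412 in HT mice and 2259.95, 2385, 2221 and 2445 in HM mice. The genotypes overlapped, and the log2 fold change was 0.08 in HT (95% interval -0.03 to 0.19) and 0.05 in HM mice (95% interval -0.05 to 0.16) against WT.

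Pcdha12 and Pcdha5 were the alpha genes with an unadjusted p under 0.05 for HT against WT. Pcdha12 had 524, 479, 586 and 637 normalized counts in WT mice, 589.6, 700.3, 641 and 673 in HT mice and 559.5, 535, 677 and 587 in HM mice. HT replicate 1 lay within the WT range. Its log2 fold change was 0.23 in HT (95% interval 0.04 to 0.42, limma, BH-adjusted p = 0.77) but 0.09 in HM mice (95% interval -0.12 to 0.30). This second value was unstable, spanning 0.06 to 0.33 over alternative settings and 0.02 to 0.15 with 1 mouse left out. The HT value spanned 0.21 to 0.24 and 0.16 to 0.30. Pcdha5 had 351, 298, 324 and 371 normalized counts in the WT mice, beside 376, 382, 360.5 and 436 for HT and 434, 376, 310.5 and 355 for HM. HT replicate 3 lay within the WT range and so did HM replicates 3 and 4, and the log2 fold change in HT mice was 0.21 (95% interval 0.02 to 0.40, limma, BH-adjusted p = 0.77).

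Pcdha2 was the 1 member with an unadjusted p under 0.05 between the mutant genotypes, with 230.4, 182, 153 and 208 normalized counts in HT and 228, 273, 222 and 241 in HM mice. HM mice exceeded HT mice by 0.33 on the log2 scale (95% interval 0.06 to 0.60, limma, unadjusted p = 0.022, BH-adjusted p = 1.00), and the WT values of 213, 245, 220.5 and 188 overlapped with both. Pcdha1 in WT replicate 1 had 44.6 normalized counts beside 109 to 138 in the other WT mice, and its log2 fold change in HM mice was 0.48 with an SE of 0.28.

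Beta genes carry no constant exon, and the share of their windows found in another member of the cluster reached 22.5% in Pcdhb12 and 20.2% in Pcdhb8. Pcdhb2 had 48.4, 67.9, 55.9 and 62.8 normalized counts in the WT mice, 97.8, 80.5, 73.0 and 72.9 in HT and 77.5, 71.0, 62.5 and 71.2 in HM mice. All HT values lay above all WT values, and HM replicate 3 lay within the WT range. The log2 fold change was 0.46 in HT (95% interval 0.11 to 0.81, limma, unadjusted p = 0.013, BH-adjusted p = 0.77, two-sided exact permutation p = 0.0286) and, for HM mice, 0.27 (95% interval -0.07 to 0.60). The gene is among the lowest of its cluster, so this change is carried by few normalized counts.

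Pcdhb3 had 144, 135, 143 and 125 normalized counts in the WT mice, beside 177, 147, 146 and 157 for HT and 149, 155, 162 and 174 for HM. All mutant values lay above all WT values, and the log2 fold change was 0.19 for HT (95% interval -0.04 to 0.43) and 0.23 for HM (95% interval 0.0021 to 0.45, limma, BH-adjusted p = 0.71). Pcdhb4, the lowest beta gene per kb, had 57.4, 71.9, 74.6 and 60.8 normalized counts in the WT mice, beside 88.5, 55.4, 63.3 and 71.1 for HT and 85.6, 86.8, 79.1 and 75.3 for HM. Its HM values lay just above the WT range, while the HT values spanned it.

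Pcdhb19 had 340.0, 368, 342 and 355 in WT mice, 412, 402, 346 and 395 in HT mice and 361, 383, 436 and 430.4 in HM. HT replicate 3 and HM replicate 1 lay within the WT range, and the log2 fold change was 0.14 in HT (95% interval -0.02 to 0.31) and 0.19 in HM mice (95% interval 0.02 to 0.37, limma, BH-adjusted p = 0.67). Pcdhb9, the highest beta gene per kb, had 342, 323, 355 and 332 normalized counts in WT mice, 362, 358, 414 and 373 in HT mice and 303, 351, 402 and 375 in HM mice. All HT values lay above the WT values and HM values spanned them. Pcdhb15 had 115 ± 17.7 in WT mice, 135 ± 8.7 in HT mice and 118 ± 12.8 in HM, and HM differed from HT by -0.20 on the log2 scale (95% interval -0.44 to 0.05), the smallest p of a beta gene in that comparison (limma, unadjusted p = 0.11, BH-adjusted p = 1.00).

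Of the gamma genes, Pcdhga4 had the smallest p among all members for HM against WT. It had 538, 584, 620.4 and 539 normalized counts in the WT mice, 641, 612, 604 and 799 in HT mice and 642, 806, 748 and 743 in HM mice. All HM values lay above all WT values, and HT replicate 4 was as high as the HM mice while HT replicates 2 and 3 lay within the WT range. The log2 fold change was 0.36 in HM (95% interval 0.19 to 0.53, limma, unadjusted p = 5.1e-04, BH-adjusted p = 0.55, two-sided exact permutation p = 0.0286) and 0.21 in HT mice (95% interval 0.02 to 0.41, limma, BH-adjusted p = 0.77), where it was 0.12 without HT replicate 4. Since reads of its first exon can also be assigned to Pcdhgb1, both genes were summed. The sum was 932 ± 78.0 normalized counts in WT mice, 1011 ± 109 in HT mice and 1124 ± 71.0 in HM mice, and the HM values again lay above all WT values, by 20.5% in the mean. The share of Pcdhga4 in the gamma sum was 2.66 ± 0.21% in WT mice, 2.91 ± 0.44% in HT mice and 3.21 ± 0.27% in HM.

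Pcdhgb7 also separated HM from WT mice, with 439.5, 495, 397 and 472 normalized counts in WT mice, 595, 491, 511 and 536 in HT mice and 541, 552, 563 and 554 in HM mice. HM values lay above all WT values and HT replicate 2 within the WT range, and the log2 fold change was 0.30 in HM (95% interval 0.13 to 0.46, limma, unadjusted p = 0.0017, BH-adjusted p = 0.55) and 0.24 in HT mice (95% interval 0.06 to 0.43). Pcdhgb2 had the smallest p of the gamma genes for HT against WT, with 395, 416, 391 and 379.5 normalized counts in WT mice, 471, 465, 499 and 414 in HT mice and 511, 433, 396 and 464 in HM mice. HT replicate 4 and HM replicate 3 lay within the WT range, and the log2 fold changes were 0.22 (95% interval 0.06 to 0.38, limma, BH-adjusted p = 0.77) and 0.18 (95% interval 0.0025 to 0.36). The HM value ranged from 0.08 to 0.19 over alternative settings and from 0.12 to 0.24 with 1 mouse left out. Pcdhga9 had a wide WT range of 326, 520.4, 609 and 441 normalized counts, beside 611, 642, 603 and 489.6 in HT and 552, 549, 469 and 489 in HM. Its log2 fold change in HT mice was 0.34 (95% interval 0.0043 to 0.67) and all genotypes overlapped. This value fell to 0.17 without WT replicate 1. It fell to 0.15 with the start of the animal number as a block, where WT replicate 1 carries no weight either.

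The other gamma genes with all HM values above all WT values were Pcdhga7, Pcdhgb6, Pcdhga12 and Pcdhgc5. Pcdhgb6 had 787 ± 68.1 normalized counts in WT mice, 859 ± 35.0 in HT mice and 914 ± 32.4 in HM mice, and Pcdhga7 had 737 ± 32.8, 778 ± 48.7 and 832 ± 34.0. Pcdhga12 had 855, 885, 888 and 892 normalized counts in the WT mice, beside 994, 864, 884 and 964 for HT and 906, 951, 985 and 1011 for HM, so that its WT values lay close together and below all HM values. Pcdhga3 and Pcdhga10 had an unadjusted p under 0.05 for HM against WT with overlapping values, and of these Pcdhga10 is the gamma gene with the least unique sequence.

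Pcdhga11 and Pcdhgc5 were the gamma genes in which all HT values lay above all WT values. Pcdhga11 had 1037 ± 85.4 normalized counts in WT mice, 1168 ± 52.9 in HT mice and 1149.98 ± 110.1 in HM mice.

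Of the gamma C-type genes, Pcdhgc5 had 4376, 4785, 5134 and 5015 normalized counts in WT mice, 5428, 5332, 5154 and 5182 in HT mice and 5351, 5238, 5197 and 5316 in HM mice. Every mutant mouse lay above every WT mouse by a narrow margin, and the log2 fold change was 0.13 in HT (95% interval 0.02 to 0.24, limma, BH-adjusted p = 0.77) and, for HM mice, 0.13 (95% interval 0.03 to 0.23, limma, BH-adjusted p = 0.66). Without WT replicate 1 both were 0.08. Pcdhgc3 had 2934, 2916, 3131 and 3334 normalized counts in WT mice, 3186, 3567, 3439.99 and 3325 in HT mice and 3315, 3487, 3310.4 and 3382 in HM mice. WT replicate 4 lay among the mutant mice, and the log2 fold changes were 0.14 (95% interval 0.02 to 0.25) and 0.13 (95% interval 0.03 to 0.24).

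Pcdhgc4 departed from its neighbours. It had 5161, 2682, 2815 and 3267 normalized counts in WT mice, 2954, 2922, 3516 and 2949 in HT mice and 2695, 3153, 3420.2 and 2593 in HM mice. WT replicate 1 had the highest value of all 12 mice, and Pcdhgc4 made up 23.8% of its gamma sum, beside 11.4% to 15.5% in the other 11 mice. In the same mouse, the rest of the gamma cluster was the lowest of the 12, with 16509 normalized counts beside 17996 to 20318, and 19 of its 20 other gamma genes lay below the mean of the other WT mice, by a median of 0.14 on the log2 scale. The log2 fold change of Pcdhgc4 was -0.13 in HT (95% interval -0.46 to 0.21) and -0.19 in HM mice (95% interval -0.55 to 0.17), and without WT replicate 1 these became 0.08 and 0.02.

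**Figure D5:**
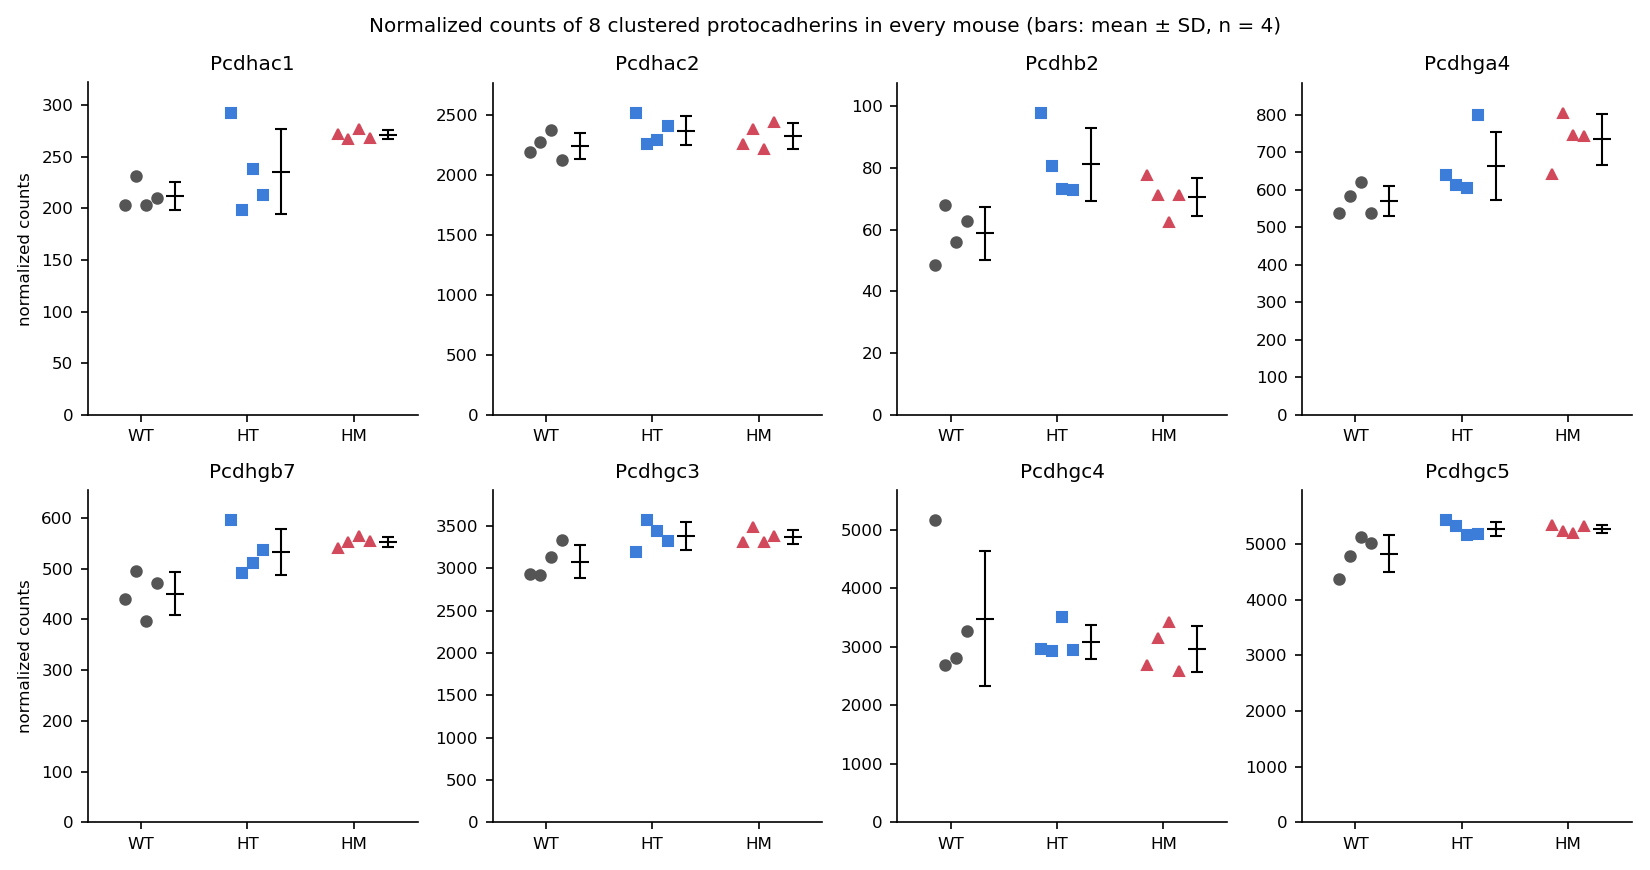
Normalized counts of 8 members in every mouse, with mean ± SD of the 4 mice of each genotype beside the points. HM values of Pcdhac1, Pcdhga4, Pcdhgb7 and Pcdhgc5 lie above all WT values, and 1 WT mouse has 5161 normalized counts of Pcdhgc4 beside 2593 to 3516 in the other 11 mice.

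Genes outside the clusters that bear on them were counted by the same tests, and none passed an adjusted p of 0.05 (limma, BH). Delta protocadherins are single genes elsewhere in the genome that encode related adhesion proteins. Of the 10, all had a log2 fold change above 0 in both mutant genotypes, beside 50% and 49.8% of all genes tested, with medians of 0.12 in HT and 0.11 in HM mice. At an unadjusted p under 0.05, 5 were higher in HT than in WT mice and 3 were higher in HM than in WT mice, beside 3.16% and 3.93% of all genes. Both comparisons share the WT mice. Pcdh10 had 5599.5 ± 139 normalized counts in WT mice, 6073 ± 124 in HT mice and 6281 ± 279 in HM mice, and all mutant values lay above the WT values.

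Of 16 regulators of protocadherin promoters and chromatin, 1 was higher and 1 lower in HT than in WT mice at an unadjusted p under 0.05, and 2 were higher in HM than in WT mice. Over all genes tested, 3.16% were higher and 3.26% lower for HT and 3.93% and 3.05% for HM. The log2 fold change was above 0 in 11 of the 16 regulators for HT and in 15 for HM mice, beside 50% and 49.8% of all genes. The regulator medians were 0.03 and 0.04. Smc3, a cohesin subunit, had the smallest p of these genes for HM against WT, with 1613 ± 88.6 normalized counts in WT mice beside 1770.4 ± 49.6 in HM, and the values overlapped. Ctcf, whose protein anchors the promoter loops, had 2007 ± 121 normalized counts in WT mice, 1997 ± 144 in HT mice and 2034 ± 53.3 in HM mice. Smchd1, which encodes a repressor of clustered protocadherin genes, had 1479.7 ± 138 in WT mice, 1282 ± 41.4 in HT mice and 1479 ± 52.2 in HM. It was lower in HT mice than in both other genotypes without overlap (log2 fold change against WT -0.20, SE 0.06, limma, BH-adjusted p = 0.77). Of 16 cytoplasmic partners, 1 was higher and 1 lower in HT mice at an unadjusted p under 0.05, and 2 were higher and 1 lower in HM mice, to be read against the same shares of all genes. Of these partners, 12 had a log2 fold change above 0 in HT and 11 in HM mice, with medians of 0.03 and 0.04. Pdcd10, whose protein binds the intracellular part of protocadherins, had 1182 ± 53.6 normalized counts in WT mice, 1058 ± 55.8 in HT mice and 1009.6 ± 46.6 in HM mice. Its values lay below all WT values in both mutant genotypes (log2 fold change of HM against WT -0.23, SE 0.05, limma, BH-adjusted p = 0.55). Wasf1, a subunit of the WAVE complex that protocadherins bind, had 5734 ± 242 normalized counts in WT mice, 6231 ± 128 in HT mice and 6222 ± 59.1 in HM mice, and all mutant values lay above the WT values.

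Markers of regions and cells that can differ in amount between dissected brains were summed per mouse, and of these sums only that of the olfactory bulb separated a genotype. The sum of 11 olfactory bulb genes was 4171 to 4833 normalized counts in WT mice, 4013 to 4578 in HT mice and 4995 to 6212 in HM mice, so HM lay above both other genotypes. The sum of 10 choroid plexus genes was 15709.97 to 20401 in WT, 13017 to 20819.9 in HT and 10209.6 to 18560.3 in HM mice. Erythrocyte genes, 7 in number, summed to 14876 to 29814 in WT, 13850.0 to 15700.4 in HT and 12792 to 36371 in HM mice. Both sums overlapped between all genotypes, but their genes did move. At an unadjusted p under 0.05 (limma), 6 of the 7 erythrocyte genes were lower in HT than in WT mice and 0 higher. Of all genes tested, 3.26% were lower. The median log2 fold change of the 7 was -0.72. For HM against WT, 3 of the 10 choroid plexus genes were lower and 0 higher, beside 3.05% of all genes that were lower. The median of the 10 was -0.43. The sums of 10 genes of the meninges, 9 of the cerebellum, 5 of serotonergic neurons and 2 of the pituitary overlapped as well. None of these marker genes was at 0 in every mouse. The part of the olfactory bulb, erythrocyte and choroid plexus differences in the values of the clustered protocadherins was not tested.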

How the data were processed

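The authors quantified paired-end reads of whole-brain libraries with Salmon 1.1.0 against GRCm38 with GC bias correction, combined the estimates per gene (tximport) and divided them by DESeq2 1.30.1 size factors (versions from the submitters' processing notes). The deposited signal values are these normalized counts, 1 column per mouse. At most 37.7% of low values were whole multiples of a read (within 0.02), so the edgeR model planned in case of raw counts was not run, nor was DESeq2. Symbols and exons came from GENCODE M21, which held 19758 of the 19775 gene identifiers (17 had no match).

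Genotypes were compared in pairs with limma 3.58.1 (R 4.3.3) on log2(normalized count + 1) over genes whose mean reached 10 normalized counts in the 8 mice compared (18004 genes for either mutant against WT, 17986 between the mutants), with limma's trend option and BH adjustment over all of them. For single genes, two-sided exact permutation p-values were added. The limma step was tested on simulated data. At a change of 0.25 on the log2 scale it recovered 22 of 200 changed genes (HT, WT), 26 (HM, WT) and 26 (mutants compared). At 0.5 it recovered 123, 109 and 129, in the same order. The lack of a called member therefore says little about differences of 0.25 or less. Sums and shares over a cluster carry no test. Further steps used Python 3.11.15, numpy 2.4.6, scipy 1.17.1, pandas 2.3.3. The members, gene lists and tests were chosen with earlier results of these data known. Values in every mouse are given for Pcdhga4 (called higher in HM mice by the study), the C-type genes, the member with the highest level per kb and the member with the smallest limma p of each cluster and comparison. Others were named by their unadjusted p or non-overlapping values, and of other lists the genes with the smallest p in a comparison with WT (Pcdh10, Smchd1, Smc3, Wasf1 and Pdcd10). Pcdha1, Pcdha8, Pcdhgb6, Pcdhga7 and Ctcf were chosen after their values were seen. Mice with the same replicate number did not deviate together (correlations of -0.066 to 0.087 over genes), so these numbers were not taken to pair them. That replicates are separate animals follows from the labels of 12 mice.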

Additional observations from a re-analysis of the deposited data

Results flagged for a closer look

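Of 54 groups of 4 mice that were examined for a mouse far from the others, 2 held such a mouse, and chance alone sets apart a mouse in about 1 in 20 groups. Pcdhgc4 had 3516 normalized counts in HT replicate 3, beside 2922 to 2954 in the other HT mice. The gamma cluster summed to 20679 normalized counts in WT replicate 2, beside 21670.0 to 21729 in the other WT mice. The value of 5161 normalized counts of Pcdhgc4 in WT replicate 1 did not meet the same criterion, because the other 3 WT mice spread from 2682 to 3267. Without Pcdhgc4, the WT gamma sum was lowest in replicate 1 (16509 normalized counts) and that of replicate 2 (17996) was next. The cause of these values was not tested.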

How the results depend on the processing

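No member had an adjusted p under 0.05 (limma, BH) under any alternative. The replicate block gave 11 (HT against WT), 12 (HM against WT) and 2 members (mutants compared) with an unadjusted p under 0.05, beside 10, 13 and 1 without it, and changed no call. With the start of the animal number as a block, Pcdhgc4 turned to 0.10 for HT against WT, the alpha median for HM against WT was 0.028, and 6 members had an unadjusted p under 0.05 for HT against WT. This block leaves WT replicate 1 without weight for HT against WT, much as leaving it out does. For HM against WT it leaves only HM replicates 3 and 4 and WT replicates 1 and 2. Leaving out 1 mouse at a time, Pcdhgc4 ranged from -0.24 to 0.079 for HT and from -0.30 to 0.017 for HM against WT, and was above 0 only without WT replicate 1. For HM against WT, Pcdhb15 ranged from -0.032 to 0.12 (below 0 without WT replicate 1, WT replicate 3 or HM replicate 1), Pcdhga9 from -0.015 to 0.28 (below 0 without WT replicate 1) and the alpha median from 0.063 to 0.22 (highest without WT replicate 2). For HT against WT, the medians ranged from 0.044 to 0.16 (alpha), 0.033 to 0.13 (beta) and 0.084 to 0.16 (gamma). Unadjusted counts ranged from 4 to 13, 8 to 14 and 0 to 5. Without a trend in the variance prior, Slc6a20a in HT mice kept its log2 fold change of -0.97 with an adjusted p of 0.14 (limma, BH). As a mean of log2 values over members, the gamma difference was 0.13 for HT and 0.14 for HM, and without Pcdhgc4 the log2 ratio of sums was 0.14 and 0.15, beside 0.09 and 0.09. Per kb, Pcdhac2 held 37.3% of the alpha and Pcdhb17 9.81% of the beta level in WT, beside 39.6% and 10.8% of the sums. The depth of the libraries is unknown, 4 mice per genotype limit what small differences can show, and reads of constant exons were divided by estimation.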
